A study of Mus musculus with 20 samples.

Results

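The 9 liver enzymes described here start or feed the breakdown of amino acids, and they were measured in the livers of mice given corticosterone, an antibody against ACBP/DBI, or both. They were chosen by name, as the 9 rows of the count table for Tat, Hpd, Tdo2, Hal, Sds, Agxt, Got1, Gpt and Gpt2 among its 48440 genes, and all 9 passed the filter on low counts that left 16071 genes to test. RNA was sequenced from the livers of 20 wild-type female C57BL/6 mice (C57BL/6J in the study's methods). The mice were 8 weeks old at the start, with 5 in each of 4 groups that differed in 2 treatments over 5 weeks. CORT (corticosterone, the main glucocorticoid of mice) or its vehicle was given at 100 µg per ml of drinking water, and αACBP (a monoclonal antibody that neutralizes ACBP/DBI, the acyl coenzyme A binding protein) or an isotype control antibody was injected 2 times per week at 5 mg per kg. The 2 groups on the isotype antibody were Isotype + Vehicle and Isotype + CORT, and the 2 on the neutralizing antibody αACBP + Vehicle and αACBP + CORT, so that the control animals carried an antibody too.

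The liver breaks down most amino acids that are not used for protein, and the first step is usually the removal of nitrogen. A transaminase passes the amino group on to an oxo acid, and dehydratases, lyases and oxygenases open other routes. The carbon skeletons that remain can be used to make glucose. Tat, Tdo2 and Sds are textbook genes of the glucocorticoid response of hepatocytes, and transaminases are known to respond to the hormone as well. After 5 weeks of CORT, 1 of the 9 genes passed the test here, and it fell, beside 3.20% of all genes tested. The genes are called the 9 enzymes in what follows. That the others did not pass does not show that they were insensitive to the hormone.

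Levels are given as counts scaled to a common library size (CPM) after normalization of library sizes, and differences as log2 fold changes from edgeR's quasi-likelihood test, with p-values adjusted across the 16071 genes by the Benjamini-Hochberg method. The threshold was an adjusted p of 0.05. Each liver had between 14934926 and 20299999 counts on genes. The 9 enzymes were deeply covered, from 860 counts for Got1 to 80936 for Hpd in a single liver, so that counting error was small beside the spread between mice. Fkbp5, a gene that glucocorticoids induce, rose with CORT under isotype from 39.3 ± 9.86 CPM (mean and SD, n = 5) to 128 ± 40.0 CPM (mean and SD, n = 5) (log2 fold change 1.70 with a standard error of 0.26, adjusted p = 0.000722). With CORT under αACBP its level was 76.7 ± 19.8 CPM (mean and SD, n = 5) beside 62.9 ± 24.2 CPM (mean and SD, n = 5) under vehicle, and the difference did not pass (log2 fold change 0.28 with a standard error of 0.26, adjusted p = 0.72). The interaction of Fkbp5 was -1.42 (adjusted p = 0.0935). Dbi, the gene of the protein that αACBP binds, was at 890.1 ± 155 CPM (mean and SD, n = 5) without either treatment, 780.0 ± 163 CPM (mean and SD, n = 5) with CORT alone, 585 ± 167 CPM (mean and SD, n = 5) with αACBP alone and 763 ± 124 CPM (mean and SD, n = 5) with both. Its lowest group was αACBP + Vehicle, which did not pass against Isotype + Vehicle (log2 fold change -0.61 with a standard error of 0.21, adjusted p = 0.0803). The 6 hepatocyte markers, among them albumin, were present in every group. In whole liver RNA, fewer cells of a type and less RNA per cell cannot be told apart.

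Upstream sequence is shown for the enzyme that passed the test, Agxt, and for the textbook pair Tat and Tdo2, which did not, because the glucocorticoid receptor is known to bind repeats of the letters AGAACA. Each line is the 250 bases before the start of the RefSeq transcript in GRCm38.p6, 5′ to 3′ on the strand of the gene. Capitals mark AGAACA or its reverse complement TGTTCT, and TATAAA or its reverse complement.
Agxt (chr1:93134990-93135239, plus strand): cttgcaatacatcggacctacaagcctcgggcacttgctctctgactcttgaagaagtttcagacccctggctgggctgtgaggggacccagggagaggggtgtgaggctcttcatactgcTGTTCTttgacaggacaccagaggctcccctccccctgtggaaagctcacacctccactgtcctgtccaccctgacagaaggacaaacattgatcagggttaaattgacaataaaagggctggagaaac
Tat (chr8:109990186-109990435, plus strand): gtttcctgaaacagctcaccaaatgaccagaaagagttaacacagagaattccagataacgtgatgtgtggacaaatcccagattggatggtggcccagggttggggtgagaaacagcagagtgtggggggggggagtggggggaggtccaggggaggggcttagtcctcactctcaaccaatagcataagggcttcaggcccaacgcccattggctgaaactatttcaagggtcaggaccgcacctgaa
Tdo2 (chr3:81975729-81975978, minus strand): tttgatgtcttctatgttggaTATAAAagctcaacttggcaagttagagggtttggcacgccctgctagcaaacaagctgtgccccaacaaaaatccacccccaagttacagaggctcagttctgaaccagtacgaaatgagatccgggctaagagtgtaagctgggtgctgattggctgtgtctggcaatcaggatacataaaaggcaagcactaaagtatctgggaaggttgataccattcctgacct

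The Agxt sequence held 1 half-site, TGTTCT, at bases 129 to 124 before the start. A half-site on either strand was found in 16.1% of 32851 promoters of the same length, so that 1 match is common. Tat and Tdo2 held none in this window, and so did Hpd, Hal, Got1 and Gpt2. The full palindrome, AGAACA and TGTTCT 3 bases apart, was in 0.00913% of promoters and in none of the 7 enzymes with an entry in the table. Tdo2 had TATAAA at bases 229 to 224 before the start, and Hal had its reverse complement at bases 28 to 23, against 12.4% of promoters with a match. The letters CCAAT on either strand occurred 5 times for Got1 and 3 times for Tat, and 33.8% of promoters had at least 1. These matches describe the letters only, and distal sites lie outside the window.

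**Figure D1:**
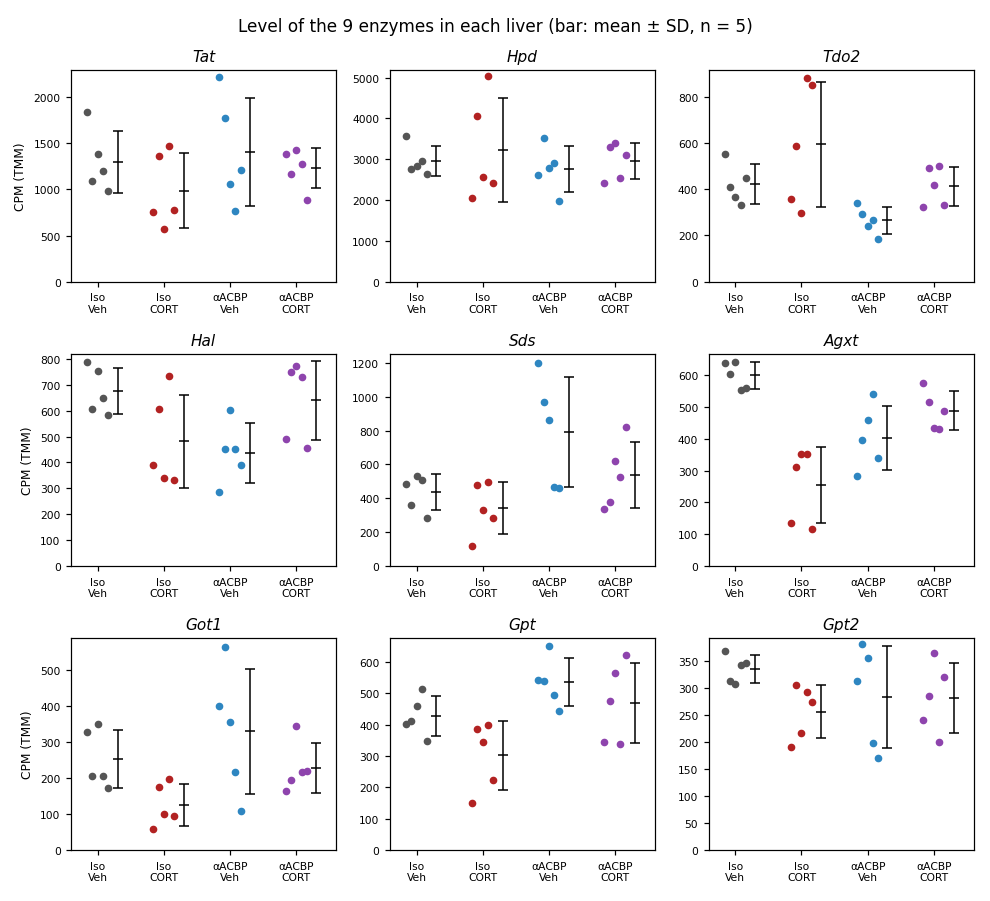
Normalized level (CPM, linear axis from 0) of each of the 9 enzymes in each of 20 livers, with the mean and SD of 5 livers beside the points. The 5 Isotype + CORT livers lay below the 5 Isotype + Vehicle livers for Agxt and for Gpt2, and the groups overlapped for the other 7 enzymes. Of all genes tested, 5.04% had groups that did not overlap here.

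With CORT under isotype, the comparison that asks what the hormone does, Agxt fell and no other enzyme passed the test. The groups did not overlap for 2 of 9 enzymes, Agxt and Gpt2, beside 5.04% of all genes. By the test, 1 of 9 enzymes was lower and 0 higher, while 1.86% of all genes tested were lower and 3.20% passed in either direction. The fold change was below 0 for 7 of 9 enzymes, with a median of -0.40 against 0.00 over all genes tested. Tdo2 and Hpd had values above 0. With αACBP under CORT, the comparison that asks what the antibody changes in hormone-treated mice, no enzyme passed, and 0.958% of all genes did. Here 7 of 9 values were above 0, with a median of 0.41 against 0.01 for all genes. Both comparisons share the Isotype + CORT livers, so that a low level in these livers gives opposite signs in the 2 comparisons.

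Under αACBP, CORT moved no enzyme past the test, and 0.305% of all genes passed. With αACBP under vehicle, none of the 9 enzymes passed, and 5.14% of all genes did, the largest share of the 6 comparisons. In the αACBP + CORT group against the Isotype + Vehicle group, no enzyme passed and 0.0809% of all genes did. No enzyme passed the test of the interaction, which asks whether the CORT response differs with the antibody, and 0.143% of genes did. At an unadjusted p of 0.05 or less there were 4 enzymes for CORT under isotype beside 15.6% of all genes, 4 for αACBP under CORT beside 12.5%, 2 for CORT under αACBP beside 12.7%, and 4 for αACBP under vehicle beside 20.6%. There were 0 for both treatments against none beside 7.59%, and 2 for the interaction beside 10.6%.

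**Figure D2:**
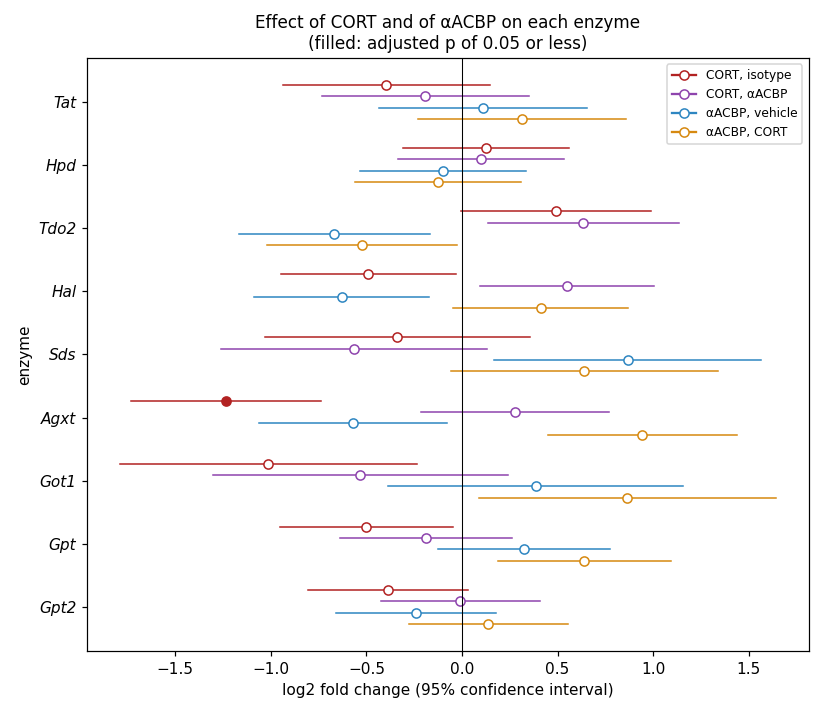
Log2 fold change (x axis) with its 95% confidence interval for each enzyme in 4 comparisons, with a filled point for a gene past the test. The single filled point is Agxt with CORT under isotype, at -1.24, and its value with αACBP under CORT was 0.94.

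Agxt encodes alanine-glyoxylate aminotransferase, which removes glyoxylate by passing the amino group of alanine to it, and which also acts on serine. It lies on the plus strand of chromosome 1 of GRCm39 from 93062962 to 93073143 (identifier ENSMUSG00000026272.6). Agxt stood at 639, 603, 641, 555 and 560.3 CPM in the Isotype + Vehicle livers, the narrowest spread of any enzyme in any group, with a coefficient of variation of 6.87%. It stood at 135, 313, 354, 354 and 118 CPM in the Isotype + CORT livers. All 5 CORT livers lay below the lowest vehicle liver, and 2 of them were far lower than the other 3. The means were 599.7 ± 41.2 CPM (mean and SD, n = 5) and 254 ± 118 CPM (mean and SD, n = 5), a fold of 0.42 with a 95% confidence interval of 0.30 to 0.60 (log2 fold change -1.24 with a standard error of 0.24, adjusted p = 0.00385). The call held without any single liver of the 10, with adjusted p between 0.00174 and 0.0143.

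With αACBP, Agxt stood at 282, 396, 459, 541 and 341 CPM under vehicle, and all 5 livers were below the Isotype + Vehicle livers. In the αACBP + CORT livers it was at 576, 518, 434, 432 and 486 CPM, and all 5 were above the Isotype + CORT livers. Groups without overlap were seen for 7.13% of all genes with αACBP under vehicle and 3.22% with αACBP under CORT. Neither difference of Agxt passed the test. For αACBP under vehicle the fold change was -0.57 with an adjusted p of 0.163, and for αACBP under CORT it was 0.94 with an adjusted p of 0.0517 and a 95% interval of 0.45 to 1.44. The adjusted p of the latter ran from 0.00897 to 0.183 over the alternative fits and was 0.0489 with DESeq2's size factors, and the difference passed without Isotype + CORT replicate 3 (0.0180) or replicate 4 (0.0408), so that it lies at the limit. The interaction was 1.51 (standard error 0.34, adjusted p = 0.0525), again at the limit. It passed without replicate 3, 4 or 5 of Isotype + CORT, replicate 3 or 4 of αACBP + Vehicle, or replicate 5 of αACBP + CORT, with adjusted p between 0.0240 and 0.0494. Under αACBP, CORT changed Agxt by 0.28 (95% interval -0.21 to 0.77, adjusted p = 0.7).

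Markers of some other cells differed between these groups. The summed level of 5 Kupffer cell markers (the resident macrophages of the liver) was 258 to 504 CPM in the Isotype + Vehicle livers. In the Isotype + CORT livers the sum was 94.7 to 290 CPM. With CORT under isotype 4 of the 5 markers fell, beside 1.86% of all genes. In the αACBP + CORT livers the sum was 357 to 490 CPM. With αACBP under CORT 1 of the 5 rose, beside 0.635% of all genes. In the αACBP + Vehicle livers, where Agxt was below all Isotype + Vehicle livers, the sum was 348 to 645 CPM. None of the 5 passed with αACBP under vehicle, beside 5.14% of all genes. Their median log2 fold change there was -0.48, so that the sum does not speak for each marker. Clec4f was at 0.73, and Marco, Timd4, Vsig4 and Cd5l were at -0.90, -0.58, -0.48 and -0.03. The summed level of 5 leukocyte markers was 22.9 to 36.2 CPM in the Isotype + Vehicle livers. In the Isotype + CORT livers it was 6.25 to 13.6 CPM. In the αACBP + Vehicle and αACBP + CORT livers it was 18.4 to 37.1 CPM and 14.2 to 24.8 CPM. Here too the sum does not speak for each marker. With CORT under isotype only Ptprc fell past the test (log2 fold change -1.53), beside 1.86% of all genes. With αACBP under CORT only Ptprc rose past it (1.18), beside 0.635%. Cd3e was at 0.36 there, and Cd79a, Itgax and S100a8 were at -0.09, -0.08 and -0.81. Of 6 hepatocyte markers, 1 rose with CORT under isotype and none fell, beside 3.20% of all genes in either direction. The median sum of 5 periportal hepatocyte markers was 6631 CPM in Isotype + Vehicle and 5660 CPM in αACBP + CORT. It was 4505 CPM in αACBP + Vehicle and 4108 CPM in Isotype + CORT. This is the order of the group means of Agxt, the ranges overlapped, and none of the 5 passed in any comparison. The 5 markers did not move alike. With CORT under isotype the log2 fold changes of Arg1, Ass1 and Cps1 were -0.62, -0.62 and -0.44. Those of Hsd17b13 and Cyp2f2 were 0.33 and 0.07. With αACBP under CORT, Arg1, Ass1 and Cyp2f2 were at 0.20, 0.23 and 0.09, and Cps1 and Hsd17b13 at -0.08 and -0.56. Of 5 endothelial markers 1 fell with CORT under isotype, beside 1.86% of all genes. With αACBP under vehicle 2 of 5 stellate cell markers fell, beside 2.36%. All markers of these lists had counts in each group, and their part in the level of Agxt was not tested.

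The tyrosine enzymes come next. Tat (tyrosine aminotransferase, the first and usually limiting step of tyrosine breakdown, chromosome 8 of GRCm39, 110717063 to 110726435) showed no change past the test in any comparison. It was at 1843, 1093, 1380.0, 1194 and 985 CPM in the Isotype + Vehicle livers and at 757, 1365, 574, 1469 and 774 CPM in the Isotype + CORT livers. Of the 5 CORT livers, 2 lay within the vehicle range and 3 below it (log2 fold change -0.40 with a standard error of 0.26, adjusted p = 0.537). With αACBP, Tat was at 2213, 1769, 1057, 763 and 1208 CPM under vehicle and 1379, 1169, 1430.4, 1276 and 882 CPM under CORT. These groups overlapped each other and both isotype groups, and the fold change for αACBP under CORT was 0.31 with a 95% interval of -0.23 to 0.86. A rise of Tat with CORT under isotype by more than 0.15 on the log2 scale lies outside the 95% interval of -0.94 to 0.15.

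Hpd encodes the dioxygenase that acts on the product of Tat (chromosome 5, 123309870 to 123320817). It was the most abundant of the 9 enzymes, at 3567, 2767, 2836, 2963 and 2642 CPM in the Isotype + Vehicle livers and 2043, 4048, 2575, 5036 and 2423 CPM in the Isotype + CORT livers. The CORT livers spread to both sides of the vehicle livers, with 2 above and 3 below. With αACBP it was at 2604, 3529, 2773, 2899 and 1984 CPM under vehicle and 2422, 3300.2, 3395, 2538 and 3114 CPM under CORT. All 6 fold changes of Hpd lay between -0.13 and 0.13, the narrowest range of the 9, and their standard errors were 0.21 to 0.30. Their signs changed in 5 of the 6 comparisons when 1 liver was left out.

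Tdo2 encodes tryptophan 2,3-dioxygenase, which opens the ring of tryptophan (chromosome 3, 81864248 to 81883509). The values were 553, 409.8, 368, 332 and 448 CPM in the Isotype + Vehicle livers and 357, 585, 298, 881 and 849 CPM in the Isotype + CORT livers. In the CORT group 3 livers lay above the vehicle range and 1 lay below it, and the difference did not pass the test (log2 fold change 0.49 with a standard error of 0.24, adjusted p = 0.329). With αACBP the values were 342, 292, 243, 268 and 184 CPM under vehicle and 321, 491, 419, 501 and 332 CPM under CORT. The αACBP + Vehicle livers were the lowest of the 4 groups on average, and only the highest of them reached into the Isotype + Vehicle range (log2 fold change -0.67 with a standard error of 0.24, adjusted p = 0.103). CORT under αACBP gave 0.64 beside 0.49 under isotype, and the interaction was 0.14 with a 95% interval of -0.56 to 0.85. Exons of Ctso on the other strand cover 49.7% of the exon bases of Tdo2, and reads of the 2 genes cannot be told apart there if the counting did not use strand. Ctso itself was at 28.5 to 40.9 CPM in the Isotype + Vehicle livers, far below Tdo2.

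Hal encodes histidine ammonia-lyase, the first step of histidine breakdown (chromosome 10, 93324629 to 93355166). It was at 787, 608, 753, 649 and 582 CPM in the Isotype + Vehicle livers and 391, 607, 341, 734 and 334 CPM in the Isotype + CORT livers. Of the CORT livers, 3 lay below the vehicle range and 2 within it (log2 fold change -0.49 with a standard error of 0.22, adjusted p = 0.27). The αACBP livers held 286, 452, 603, 453 and 392 CPM under vehicle and 489, 750.0, 774, 733 and 455 CPM under CORT. In the αACBP + Vehicle group 4 livers lay below the Isotype + Vehicle range (log2 fold change -0.63 with a standard error of 0.22, adjusted p = 0.0929). CORT thus went with a value of -0.49 under isotype and 0.55 under αACBP. The interaction of 1.04 did not pass the adjustment (95% interval 0.39 to 1.69, adjusted p = 0.163).

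Sds encodes serine dehydratase, which turns serine into pyruvate (chromosome 5, 120614585 to 120621997). It was at 484, 361, 533, 509.5 and 286 CPM in the Isotype + Vehicle livers and 120.3, 481, 332, 499 and 286 CPM in the Isotype + CORT livers. Only replicate 1 of the CORT livers left the vehicle range, to the low side (log2 fold change -0.34 with a standard error of 0.33, adjusted p = 0.735). Its highest levels were in the αACBP + Vehicle livers, at 1200.2, 970.1, 865, 467 and 459 CPM, and with αACBP + CORT it was at 334, 377, 620.0, 528 and 821 CPM. Of the αACBP + Vehicle livers, 3 exceeded every Isotype + Vehicle liver (log2 fold change 0.87 with a standard error of 0.34, adjusted p = 0.136), and this difference did not pass the test. Exons on the other strand, of Plbd2 and Gm15690, cover 26.9% of the exon bases of Sds. Plbd2, a lysosomal protein gene, was at 316 ± 84.3 CPM (mean and SD, n = 5) under isotype with vehicle and 555 ± 202 CPM (mean and SD, n = 5) under αACBP with vehicle, and its level varied with that of Sds (r 0.98 over 20 livers). The share of Sds reads in Plbd2, or the reverse, was not tested.

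The other transaminases are Got1, the aspartate aminotransferase of the cytosol (chromosome 19, 43488188 to 43513674), Gpt, the alanine aminotransferase of the cytosol (chromosome 15, 76579616 to 76583890), and Gpt2, its mitochondrial counterpart (chromosome 8, 86218810 to 86255577). All 3 had values below 0 with CORT under isotype and above 0 with αACBP under CORT, where Gpt2 came to -0.00335 with limma's voom, and none passed the test. Got1 was at 328, 206, 349, 204 and 173 CPM in the Isotype + Vehicle livers and 58.8, 175, 101, 196 and 93.5 CPM in the Isotype + CORT livers. Of 5 CORT livers, 3 lay below the vehicle range (log2 fold change -1.01 with a standard error of 0.37, adjusted p = 0.158), and the size of the fold change was close to that of Agxt with a wider error. Got1 was at 401, 562, 356, 218 and 109 CPM in the αACBP + Vehicle livers and 164, 194, 343, 216 and 220.1 CPM in the αACBP + CORT livers. The former group had the widest spread of any enzyme, with a coefficient of variation of 52.9%, and held both the highest level of Got1 and 1 liver below all Isotype + Vehicle livers.

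Gpt was at 403, 410.1, 459, 514 and 346 CPM in the Isotype + Vehicle livers and 151, 387, 346, 400.3 and 223 CPM in the Isotype + CORT livers. In the CORT group 3 livers lay below the vehicle range, replicate 3 only just, and 2 within it (log2 fold change -0.50 with a standard error of 0.22, adjusted p = 0.246). It was at 543, 540.0, 651, 496 and 444 CPM in the αACBP + Vehicle livers and 346, 475, 566, 339 and 623 CPM in the αACBP + CORT livers, and its value with αACBP under CORT was 0.64 (95% interval 0.19 to 1.09, adjusted p = 0.175). Exons of Gm56705 face 22.7% of the exon bases of Gpt from the other strand.

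Gpt2 was at 369, 313, 307, 344 and 346 CPM in the Isotype + Vehicle livers and 191, 305, 218, 294 and 275 CPM in the Isotype + CORT livers. The highest CORT liver lay just under the lowest vehicle liver, so that the groups did not overlap, and the difference did not pass the test (log2 fold change -0.39 with a standard error of 0.20, adjusted p = 0.371). With αACBP it was at 313, 382, 355, 199 and 169.6 CPM under vehicle and 241, 285, 365, 200.1 and 320.2 CPM under CORT. Both of these groups overlapped each other and both isotype groups, and the fold change for αACBP under CORT was 0.14.

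Per kilobase of exon, in the Isotype + Vehicle group, the order of the levels was Hpd (1121 ± 137 CPM per kb, SD), Tat (539 ± 139.8), Agxt (331 ± 22.8), Sds (234 ± 57.2), Hal (122 ± 16.2), Gpt (110.5 ± 16.4), Tdo2 (105 ± 21.2), Got1 (48.7 ± 15.5) and Gpt2 (35.8 ± 2.72), each over 5 livers. The neighbours Hal and Gpt, Gpt and Tdo2, and Got1 and Gpt2 overlapped, and the other neighbours did not. All annotated exons were used for the lengths, so that a gene with long rare exons appears lower. In the Isotype + CORT group, Agxt (140.4 ± 65.4) stood below Sds (185 ± 83.4) and close to Tdo2 (147 ± 67.0), and the 3 overlapped. Taken as a sum, the 9 enzymes took 0.634% to 0.840% of the counts on genes in the Isotype + Vehicle livers and 0.389% to 0.886% in the Isotype + CORT livers.

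The spread within groups was examined next. The coefficients of variation of the 9 enzymes were 19.3% to 46.5% in the Isotype + CORT group, 14.3% to 52.9% in αACBP + Vehicle, 12.4% to 36.7% in αACBP + CORT and 6.87% to 31.9% in Isotype + Vehicle. The spread was widest in Isotype + CORT for 6 of 9 enzymes and in αACBP + Vehicle for the other 3. Replicate 4 of Isotype + CORT was the highest of its group for 8 of 9 enzymes, and replicate 1 the lowest for 5. Replicate 5 of Isotype + Vehicle and replicate 5 of αACBP + Vehicle were each the lowest of their group for 6. The latter had a normalization factor of 1.29, which scales its CPM down, against 0.88 to 1.08 in the other livers. The part of this factor in its low levels was not tested. After the mean of each group was taken off, 10 of the 36 pairs of enzymes varied together over the 20 livers past the threshold of 0.05 (Pearson's r, two-sided permutation within groups with 100000 resamples, adjusted over the 36 pairs). All 10 were positive, and they were the 10 pairs among Hpd, Sds, Got1, Gpt and Gpt2. How often pairs of other genes pass in the same way was not tested. The count thus cannot be called particular to these enzymes. For Sds and Got1, the strongest pair, r was 0.82 and rho 0.87 (adjusted p = 0.00144 from the permutation test), and r was 0.77 without the 2 livers farthest from the median of Sds. For Sds and Gpt, r was 0.81 with rho 0.76, and for Hpd and Got1 it was 0.80 with rho 0.77, both with an adjusted p of 0.00264 by permutation.

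Agxt, Tat, Tdo2 and Hal were in no pair past the test. The r of Agxt and Tdo2 with each other was -0.12. Agxt had its highest r with Gpt, at 0.61 (rho 0.47, adjusted p = 0.143 by permutation), and this dropped to 0.38 without 2 livers. Tat with Got1 reached 0.62 (adjusted p = 0.0661 by permutation), and Hpd with Hal 0.67 (0.0507). By ranks, 12 pairs passed. The count was 6 without replicate 1 of Isotype + CORT, the liver low for many enzymes, and 8 to 13 without any other liver.

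**Figure D3:**
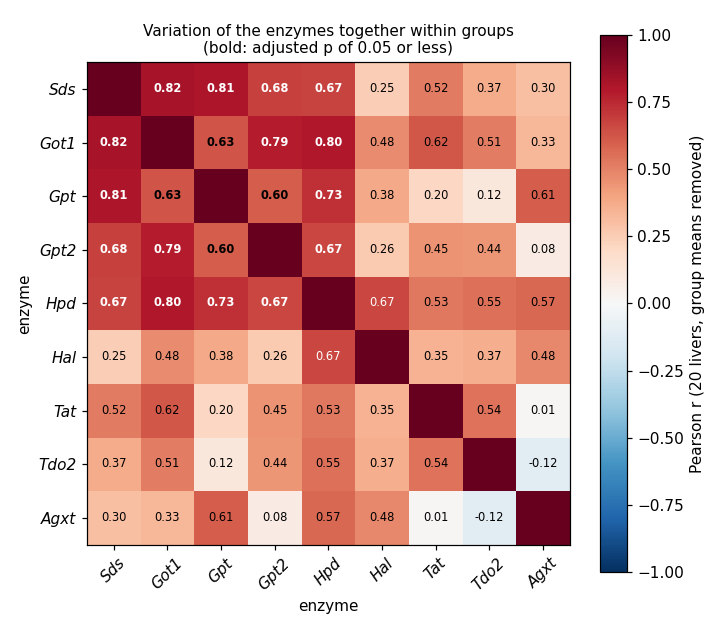
Pearson's r between the log2 CPM of each pair of the 9 enzymes over 20 livers after removal of group means, from -1 (blue) to 1 (red). Bold values had an adjusted p of 0.05 or less, and they fill the block of Sds, Got1, Gpt, Gpt2 and Hpd, from 0.60 to 0.82.

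For each enzyme the most alike of 11926 other genes was found by Pearson's r of log2 CPM over the 20 livers, as a description without a p, since it is the highest of many and since livers share their group, depth and normalization. Hpd was most like Hgd (r 0.82), whose enzyme acts after Hpd in the breakdown of tyrosine. Gpt was most like Prodh (0.94), which starts the breakdown of proline. Sds was most like Plbd2 (0.98), the neighbour whose gene overlaps it by 651 bases on the other strand. Tdo2 was most like Fmo5 (0.92), and Hal most like Sox9 (0.85), a gene of bile duct cells. Agxt was most like H2-Aa (0.89), an MHC class II gene of antigen-presenting cells. The values for Got1 with Rpl36 (0.84), Gpt2 with Cep41 (0.83) and Tat with Tpst2 (0.69) complete the list, and Tat thus had the least alike partner.

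Beyond the 9 enzymes, 62 other genes of amino acid breakdown were taken as a list, and 61 were tested. Cbs fell and no other listed gene passed for CORT under isotype, which is 1 of 61 lower beside 1.86% of all genes. Cbs, cystathionine β-synthase, joins homocysteine and serine on the way to cysteine. It fell from 642 ± 48.7 CPM (mean and SD, n = 5) to 358 ± 63.1 CPM (mean and SD, n = 5) (log2 fold change -0.84 with a standard error of 0.16, adjusted p = 0.00266), and its groups did not overlap (591 to 718 CPM and 280.5 to 456 CPM). With αACBP under CORT, Cbs rose to 561 ± 87.8 CPM (mean and SD, n = 5) (log2 fold change 0.65 with a standard error of 0.16, adjusted p = 0.0412), as 1 of 61 higher beside 0.635% of all genes, and the interaction of Cbs passed too (log2 fold change 1.13 with a standard error of 0.23, adjusted p = 0.0312), as 1 of 61 beside 0.0996%. The call for αACBP under CORT was lost without any of 7 single livers, replicates 1, 2 or 5 of Isotype + CORT and 1 to 4 of αACBP + CORT. The call for the interaction was lost without any of 11, the same livers except Isotype + CORT replicate 5, and replicates 1, 2 or 5 of Isotype + Vehicle and 1 or 2 of αACBP + Vehicle. Agxt and Cbs had the same order of group means, highest in Isotype + Vehicle, then αACBP + CORT, then αACBP + Vehicle, and lowest in Isotype + CORT.

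Under αACBP, CORT raised Gldc, the glycine decarboxylase of the glycine cleavage system, from 60.6 ± 11.5 CPM (mean and SD, n = 5) to 139.6 ± 43.6 CPM (mean and SD, n = 5) (log2 fold change 1.20 with a standard error of 0.21, adjusted p = 0.0101), as 1 of 61 higher beside 0.212% of all genes. It lost the call without αACBP + Vehicle replicate 3 or αACBP + CORT replicate 2. With αACBP under vehicle 6 of 61 passed, 5 lower beside 2.36% of all genes and 1 higher beside 2.78%. The largest falls among those past the test were those of Gldc from 139 ± 33.4 CPM (mean and SD, n = 5) (log2 fold change -1.20 with a standard error of 0.21, adjusted p = 0.00314), of Cth, which splits cystathionine to cysteine, from 494 ± 99.7 CPM (mean and SD, n = 5) to 227 ± 94.6 CPM (mean and SD, n = 5) (log2 fold change -1.12 with a standard error of 0.32, adjusted p = 0.0451), and of Kynu, the kynureninase of the tryptophan route, from 105 ± 18 CPM (mean and SD, n = 5) to 58.1 ± 12.8 CPM (mean and SD, n = 5) (log2 fold change -0.86 with a standard error of 0.19, adjusted p = 0.0117). Aspg, an asparaginase, rose from 851 ± 253 CPM (mean and SD, n = 5) to 1704 ± 326 CPM (mean and SD, n = 5) (log2 fold change 1.00 with a standard error of 0.28, adjusted p = 0.0338). The other 2 that fell, named after their values were seen, were Hibadh (-0.58) and Aldh6a1 (-0.51) of valine breakdown. The list had a median of -0.29 here against -0.02 for all genes, and 42 of its 61 genes were below 0. Hepatocyte markers outside amino acid breakdown were low in this comparison too, with a median of -0.40 for the 6 hepatocyte markers. The medians were -0.48 for the 5 periportal and -0.32 for the 5 pericentral hepatocyte markers, and 0 of these markers passed. Whether the shift of the list is particular to amino acid breakdown was not tested. Without each of the 10 livers of these 2 groups in turn, the count of 6 ran from 2 to 10. The share of all genes ran from 1.11% to 7.99% in the same fits. The count was 2 without Isotype + Vehicle replicate 1, 2 or 5 or αACBP + Vehicle replicate 1 or 5 (1.11% to 1.88%). It was 3 without αACBP + Vehicle replicate 3 (4.15%), and 10 without Isotype + Vehicle replicate 4 (7.99%). No listed gene passed for both treatments against none.

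**Figure D4:**
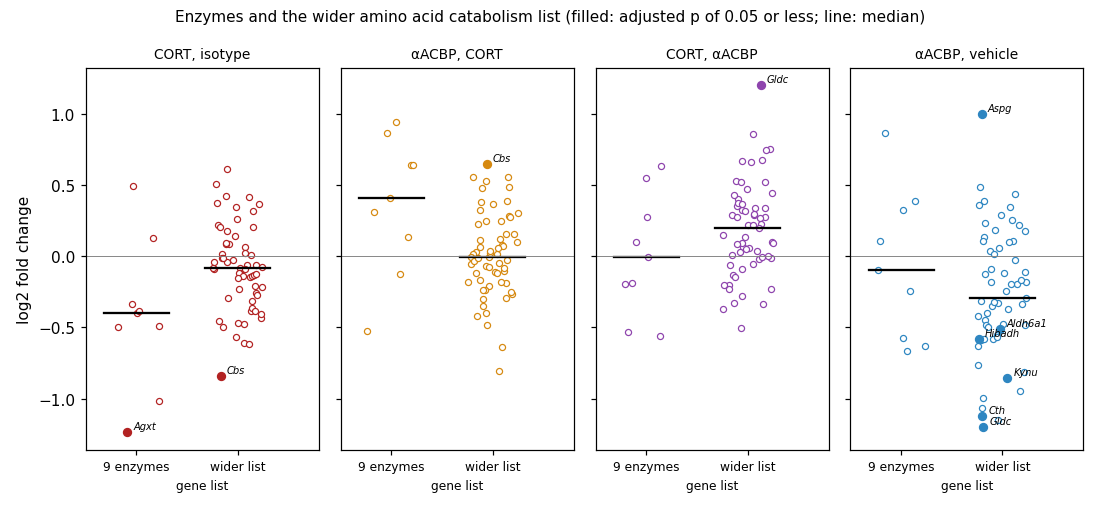
Log2 fold change (y axis) of the 9 enzymes and of 61 other genes of amino acid breakdown in 4 comparisons, with a filled, named point for a gene past the test and a line at the median. The median of the 9 enzymes was -0.40 with CORT under isotype and 0.41 with αACBP under CORT, and that of the wider list -0.09 and -0.01.

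The level of Tat is known to follow the time of day, and the clock genes differed between groups. Dbp, an output gene of the clock, was at 5.42 to 23.5 CPM in the Isotype + Vehicle livers and 151 to 610.4 CPM in the αACBP + Vehicle livers, which did not overlap (log2 fold change 4.31 with a standard error of 1.06, adjusted p = 0.0287). Bmal1 was at 28.2 to 40.6 CPM and 1.90 to 13.2 CPM in the same groups. Of 14 clock genes, 3 rose and 2 fell with αACBP under vehicle, beside 2.78% and 2.36% of all genes. With CORT under isotype 1 rose (Hlf), beside 3.20% of all genes in either direction. Nfil3 rose with CORT under αACBP (log2 fold change 1.45, adjusted p = 0.0101) and passed for the interaction (adjusted p = 0.0162), and 0 changed with αACBP under CORT or for both treatments against none. In the αACBP + CORT group, Dbp was at 194 CPM in replicate 5 and at most 9.60 CPM in the others. The part of the time of collection in the levels of the 9 enzymes was not tested.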

How the data were processed

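Liver RNA of 20 mice was sequenced as read pairs. The authors aligned the pairs with HISAT2 2.2.1 and counted them on genes with HTSeq-count 2.0.2 (union mode, with pairs on several features counted for each). They deposited raw counts for 48440 genes and 20 livers. Their methods name GRCm39 and the submitters' processing notes mm10, and annotation release and strand setting are not given in the sources used here. The lines of each column that are not genes held 59.6% to 63.4% of its total and were left out. Pairs on no feature made 42.3% to 45.2%. The other lines were pairs that were ambiguous, of low quality, not aligned or not aligned uniquely. Columns were assigned to mice by name, with 0 left over.

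Counts were tested in R 4.3.3 with edgeR 4.0.16 (TMM, robust quasi-likelihood test, low-count filter, 1 model of the 4 groups), and the p-values were adjusted across 16071 genes. Alternatives used DESeq2 1.42.0, limma 3.58.1 and the settings named in the closing section. Programs were checked on simulated counts. The counts simulated for the edgeR fit had less spread between livers than these data, whose common biological coefficient of variation was 0.481. The check does not cover the recovery of changes at that spread. All 9 enzymes were named, with up to 3 genes per direction of the wider list by size of change and the most alike gene of each enzyme at a mean of at least 1 CPM. The enzymes and lists were chosen with earlier results of these data known. Gene positions come from GENCODE M39 (GRCm39) and promoters from RefSeq (GRCm38.p6), where 7 of the 9 enzymes matched. The lowest total made 3 counts 0.201 CPM, a floor that covers counting error only. Any pair of livers from 1 group differed beyond counting noise, with correlations of 0.869 to 0.958. Replicate numbers mark different mice.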

Additional observations from a re-analysis of the deposited data

Results flagged for a closer look

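Agxt met the condition for a difference between groups: with αACBP under vehicle all 5 livers lay below all 5 Isotype + Vehicle livers, and with αACBP under CORT all 5 lay above all 5 Isotype + CORT livers. The log2 fold changes were -0.57 and 0.94. The test of the difference itself, the interaction, gave 1.51 (standard error 0.34, 95% interval 0.82 to 2.21), and its adjusted p of 0.0525 from edgeR's quasi-likelihood test missed the threshold. Without single livers it ranged from 1.34 to 1.66, with adjusted p between 0.0240 and 0.109. No liver of any group stood apart for any enzyme in 36 sets of 5 livers by Dixon's criterion.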

How the results depend on the processing

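Agxt fell with CORT under isotype in all 10 alternative fits and without each of 10 livers (log2 fold changes -1.39 to -1.06 without single livers), as the sole enzyme called, except that Got1 joined it for a count of 2 at an unadjusted p with a limit of 1 on the log2 fold change, beside 5.54% of all genes. For αACBP under CORT, the enzyme count of 0 became 1 (Agxt) with DESeq2's size factors, DESeq2's Wald test and limma's voom with liver weights. The same held for no filter beyond 1 count, at least 10 counts in every liver and the replicate block. In these fits 0.606% to 2.68% of all genes passed. Without single livers the count was 0 to 1, beside 0.370% to 1.92%. With αACBP under vehicle it was 3 by DESeq2 (Hal, Sds, Tdo2), beside 14.3% of the 11085 genes that DESeq2 gave an adjusted p. It was 1 by voom (Tdo2), beside 11.5% of all genes, and 2 with only the 2 groups (Hal, Tdo2), beside 6.90%. For the interaction it was 2 by DESeq2 (Agxt, Hal), beside 2.36% of the 10150 genes with an adjusted p. It was also 2 at an unadjusted p with a fold limit (Agxt, Hal), beside 4.92% of all genes. It was 1 by voom and with either filter (Agxt), beside 0.217% to 0.541%. Without single livers it was 0 to 1, beside 0.0364% to 0.620%.

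For the wider list, each count is followed by the share of all genes with an adjusted p in the same fit. For DESeq2 these were between 10150 and 16069 genes, depending on the comparison. CORT under isotype gave 3 by DESeq2 (5.91%), and 0 with the fold limit at an adjusted p (1.94%) or an unadjusted p (5.54%). It gave 1 to 3 without single livers (1.64% to 3.95%). With αACBP under CORT the count was 2 by DESeq2 (2.68%), and 0 without the filter (0.606%) and with only the 2 groups (0.191%). It was also 0 with the fold limit at an adjusted p (0.597%) or an unadjusted p (3.24%). Without single livers it was 0 to 1 (0.370% to 1.92%). CORT under αACBP gave 2 by DESeq2 (3.01%) and by voom (2.56%), and 0 to 2 without single livers (0.0303% to 1.58%). With αACBP under vehicle it was 13 by DESeq2 (14.3%) and 14 by voom (11.5%). It was 2 without the filter (2.89%) and 3 with the fold limit at an adjusted p (1.30%). Without single livers it was 2 to 10 (1.11% to 7.99%). Both treatments against none gave 2 by voom (3.62%). The interaction gave 2 by DESeq2 (2.36%), by voom (0.330%), without the filter (0.217%) and with at least 10 counts in every liver (0.541%). It gave 3 at an unadjusted p with a fold limit (4.92%), and 0 to 2 without single livers (0.0364% to 0.620%). The pairs numbered 6 to 13 without single livers. For the counts that differ between fits the cause was not tested.

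Small fold changes changed sign, none of them past the test. With voom these were Gpt2 with αACBP under CORT (-0.00335), Tat with CORT under αACBP (0.0529), Hpd with CORT under αACBP (-0.0397), Tat with αACBP under vehicle (-0.0518), and Tat for both treatments against none (0.00106). Without single livers, Hpd ran from -0.0931 to 0.252 with CORT under isotype, -0.252 to 0.0925 with αACBP under CORT, -0.00115 to 0.204 with CORT under αACBP, -0.0557 to 0.0768 for both treatments and -0.151 to 0.193 for the interaction. Tat ran from -0.346 to 0.0342 with CORT under αACBP, -0.117 to 0.269 with αACBP under vehicle and -0.172 to 0.0782 for both treatments. Gpt2 ran from -0.148 to 0.124 with CORT under αACBP, Hal from -0.156 to 0.0225 for both treatments, and Tdo2 from -0.112 to 0.0846 for both treatments and -0.0231 to 0.332 for the interaction.

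The replicate number as a block gave 1 enzyme for αACBP under CORT (Agxt, adjusted p = 0.0402 by the edgeR test), 0.00491 for Gpt2 with CORT under αACBP and 0.0549 for the interaction of Hpd, and no other call of the 9 enzymes changed. Same-numbered livers did not deviate together (correlations -0.10 to 0.10 over pairs, and 3 of 20 livers closest to their own number), so that the numbers do not pair the mice. Raw counts of the 9 enzymes were 860 or more in each liver, and no fit at a lower depth was run.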
